A study of Mus musculus with 4 samples.

Results

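Circular RNAs (circRNAs, here also circles) of 6 genes best known from blood-vessel lining cells were followed through mouse lung development. The circles are all those whose deposited Ensembl host identifier maps to Pecam1, Prex2, Adgrf5, Calcrl, Tek or Ldb2, which gave 50 of the 13499 distinct circRNAs of the series. The 6 genes were selected on the junction and non-junction reads of these same libraries by stage, so their levels and ratios are given as a description and test nothing. Lungs of C57BL/6 mice, with no genotype change or treatment named, were sampled at embryonic day 14.5 (pseudoglandular), 16.5 (canalicular) and 18.5 (terminal sac) and at newborn day 7.5 (alveolar). Each stage is 1 library of total RNA, and the labels do not give the number of animals in it. There is therefore no replicate check and no p-value, and every comparison is between libraries. The 95% intervals cover counting error only, and since copies made by PCR are not separate molecules, they can be too narrow.

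A circRNA forms when the donor site at the end of a downstream exon is spliced back to the acceptor site at the start of an upstream exon. A read across that back-splice is a junction read, and a read aligned linearly across either end is a non-junction read. Endothelial cells line the vessels that grow with the airways and, after birth, form the capillary bed of the alveolar walls. In bulk tissue, fewer cells of a type and less RNA per cell cannot be told apart. Pecam1 encodes an adhesion molecule of endothelial junctions that platelets and leukocytes also carry, and Prex2 a guanine nucleotide exchange factor for the small GTPase Rac. Adgrf5 is an adhesion G protein-coupled receptor of endothelium and of surfactant-producing epithelial cells, and Calcrl is the receptor that binds adrenomedullin together with partner proteins. Tek is the receptor kinase for angiopoietins, and Ldb2 is a cofactor that binds LIM-domain transcription factors.

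Back-splice sequences of 7 circles are given next, so that each junction can be recognised: the leading circle of Pecam1, Prex2, Adgrf5 and Ldb2, the exonic Tek circle with most reads, and the circle that shares the acceptor of the Pecam1 or the donor of the Ldb2 one. They hold 155 of the 322 junction reads of the 6 genes. They are read from GENCODE M21 transcripts on GRCm38, the assembly that the submitters' build mm10 names, 5′ to 3′ along the RNA. The lower-case 25 bases end the donor exon and the 25 capitals begin the acceptor side, which is the start of an exon except for Ldb2 exon 1, where it lies inside the exon. None of these 50-base runs occurs in the linear transcript it was taken from.
Pecam1 exon 13 to exon 8 (chr11:106679549-106685248, minus strand): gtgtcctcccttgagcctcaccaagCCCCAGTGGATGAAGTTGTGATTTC
Pecam1 exon 14 to exon 8 (chr11:106671742-106685248, minus strand, same acceptor): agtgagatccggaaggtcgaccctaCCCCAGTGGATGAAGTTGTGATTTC
Prex2 exon 34 to exon 26 (chr1:11181855-11208655, plus strand, Prex2-201): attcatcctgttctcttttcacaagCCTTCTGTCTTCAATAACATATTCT
Adgrf5 exon 9 to exon 3 (chr17:43410502-43428666, plus strand, Adgrf5-201): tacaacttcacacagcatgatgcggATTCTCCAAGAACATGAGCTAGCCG
Tek exon 12 to exon 9 (chr4:94827256-94837404, plus strand, Tek-203): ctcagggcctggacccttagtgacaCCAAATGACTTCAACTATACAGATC
Ldb2 exon 5 to inside exon 1 (chr5:44532661-44799437, minus strand, Ldb2-201): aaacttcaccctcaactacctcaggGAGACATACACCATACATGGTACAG
Ldb2 exon 5 to exon 3 (chr5:44532661-44541859, minus strand, same donor): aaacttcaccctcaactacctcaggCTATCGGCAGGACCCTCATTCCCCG

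The libraries listed 4474 to 5564 circRNAs with 25983 to 36156 junction reads each. All 4 came from 1 flow-cell lane and shared no listed read. In each library 37.4% to 41.5% of listed circRNAs had the lowest number of junction reads found, 2, so whether a circle appears depends on depth.

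Over the 6 genes, 7 circles with 28 junction reads were listed in the pseudoglandular library, 8 with 39 reads in the canalicular, 24 with 109 reads in the terminal sac library and 28 with 146 reads in the alveolar. As a share of all listed junction reads this was 0.108% (exact binomial interval 0.0716 to 0.156), 0.125% (0.0889 to 0.171), 0.301% (0.248 to 0.364) and 0.515% (0.435 to 0.606) in the same order of stage. The alveolar interval lay above the other 3, and the terminal sac interval above the earlier 2. Prex2 gave 125 of the 322 reads, Pecam1 83, Ldb2 59, Adgrf5 24, Tek 17 and Calcrl 14. Of the 50 circles 14 reached 5 reads in some library, while 39 were listed in 1 library only, 6 in 2, 4 in 3 and 1, from Ldb2, in all 4. The 78% listed in 1 library compare with 74.0% of all 13008 circRNAs with a host.

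**Figure D1:**
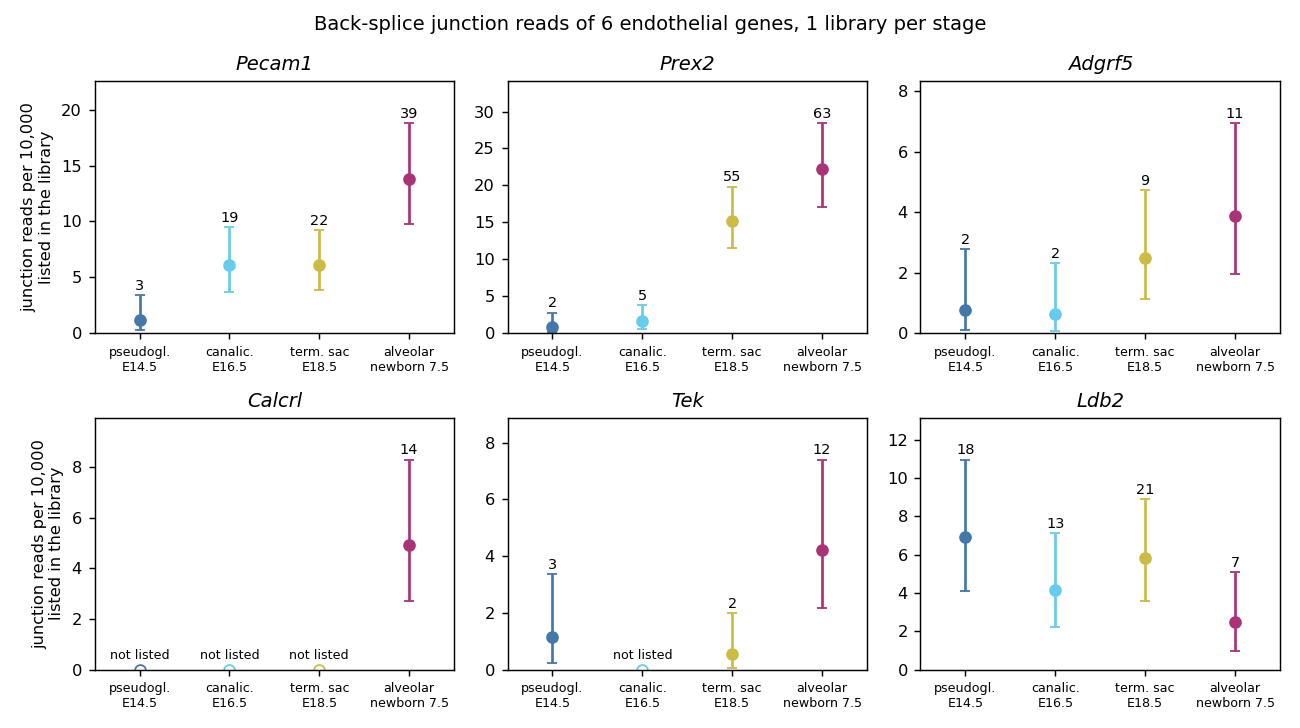
Junction reads per 10000 listed junction reads for each of the 6 genes in the 4 libraries in order of stage, with exact Poisson 95% intervals; the number above a point is its read count and open circles mark libraries with no listed circle. Pecam1, Prex2, Adgrf5, Calcrl and Tek stand highest in the alveolar library and Ldb2 lowest there.

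Gene levels are junction reads summed over circles per 10000 listed in the library, and libraries were compared in pairs. The rule for a call was 10 or more reads in the pair, a ratio of levels of at least 2-fold and an exact conditional interval that excluded 1. The widest pair was alveolar against pseudoglandular. By this rule 12.9% of all 1084 host genes compared were higher and 16.7% lower. That is 140 higher and 181 lower. Median-of-ratios scaling gave 162 higher and 155 lower, and scaling to non-junction reads 171 higher and 150 lower. Of the 6 genes 4 were higher (Pecam1, Prex2, Adgrf5 and Calcrl) and 1 lower (Ldb2), a count that their choice partly fixed. The median log2 ratio was 2.22 over the 6 genes and -0.12 over all hosts compared. In the alveolar against the terminal sac library, 3 of the 6 were higher (Pecam1, Calcrl and Tek) and 0 lower, where 12% of 1197 hosts were higher and 12.4% lower, or 144 and 149, against 164 and 117 when scaled by the median of ratios. The median log2 ratio of that pair was 0.91 over the 6 genes and -0.23 over all hosts. The earlier steps allowed fewer comparisons. In the canalicular against the pseudoglandular library 2 of the 6 genes had enough reads and Pecam1 was higher, where 8.87% of 1127 hosts were higher and 11.3% lower. That split of 100 higher against 127 lower turned to 169 against 100 when libraries were scaled by non-junction reads. In the terminal sac against the canalicular library 4 had enough reads and Prex2 was higher, where 12.4% of 1236 hosts were higher and 12.1% lower. These comparisons share libraries and are not independent of each other.

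Pecam1 (ENSMUSG00000020717, chromosome 11, 106654217 to 106750628) gave 10 circles, all with both ends at exon boundaries of the coding sequence. Its junction reads were 3, 19, 22 and 39 in order of stage, which is 1.15, 6.09, 6.08 and 13.8 per 10000. The canalicular and terminal sac levels were close to each other, the pseudoglandular level was below them and the alveolar level above. The alveolar library stood 11.9-fold (3.79 to 60.3) above the pseudoglandular one and 2.26-fold (1.31 to 4.01) above the terminal sac. The canalicular library stood 5.27-fold (1.55 to 27.8) above the pseudoglandular one. The terminal sac level was 0.9998 times the canalicular level (0.516 to 1.95), an interval that leaves room for a change of up to about 2-fold either way.

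The circle of exons 8 to 13 held 57.8% of the Pecam1 reads and was unlisted in the pseudoglandular library. The canalicular library had 8 reads of it (Poisson interval 3.45 to 15.8), the terminal sac library 13 (6.92 to 22.2) and the alveolar library 27 (17.8 to 39.3). The alveolar library was 2.65-fold (1.32 to 5.59) above the terminal sac for this circle, and 10.5% of all 1123 circRNAs compared in that pair were higher and 11% lower. Set to the floor of 3 reads in the pseudoglandular library, it was at least 8.25-fold (2.54 to 42.5) higher in the alveolar, where 12.2% of 933 circRNAs were higher and 17.4% lower. That bound holds only if the pseudoglandular library had 3 or fewer reads of it. Without the circle Pecam1 was higher in none of these comparisons. Its alveolar level was then 3.67-fold (0.990 to 20.3) the pseudoglandular and 1.70-fold (0.658 to 4.57) the terminal sac level, and its canalicular level 3.05-fold (0.806 to 17.04) the pseudoglandular. The non-junction reads at the ends of the exons 8 to 13 circle numbered 3015, 3643 and 4187 in the canalicular, terminal sac and alveolar libraries, so the junction ratio, junction reads times 2 over themselves plus non-junction reads, was 0.528%, 0.709% and 1.27%. The odds of a junction over a non-junction read in the alveolar library were 1.77 times those in the terminal sac library for this circle (Woolf interval 0.923 to 3.40) and 2.18 times over all Pecam1 circles (1.30 to 3.66). Non-junction reads of circles that share an end are counted more than once in such sums. The sums over all Pecam1 circles took in 4 alveolar and 5 terminal sac circles, of which 2 were in both lists. Of all hosts compared in that pair 8.12% had higher and 17.5% lower junction odds.

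The other Pecam1 circles reuse a few splice ends. The exon 13 donor closed 3 circles with 60 reads, and the exon 14 donor another 3 with 11. The acceptors of exons 8, 6 and 3 opened 2, 3 and 4 circles. Exons 8 to 14 gave 2 terminal sac and 5 alveolar reads, exons 3 to 13 gave 7 canalicular reads, and exons 6 to 7 gave 5 alveolar reads. The remaining 6 circles had 2 or 3 reads in any library that listed them. Counted on annotated exons, the leading circle is 615 bases long and spans residues 487 to 692 of 716. All 10 Pecam1 circles have an exon length divisible by 3, as do 11 of the 13 internal coding exons of the transcript. The same holds for 8 of 23 Prex2 circles, 3 of 4 Tek circles, 0 of 3 Adgrf5 circles, 0 of 1 each for Calcrl and Ldb2, and 39.04% of the 10023 circRNAs of the series with both ends at exon boundaries.

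**Figure D2:**
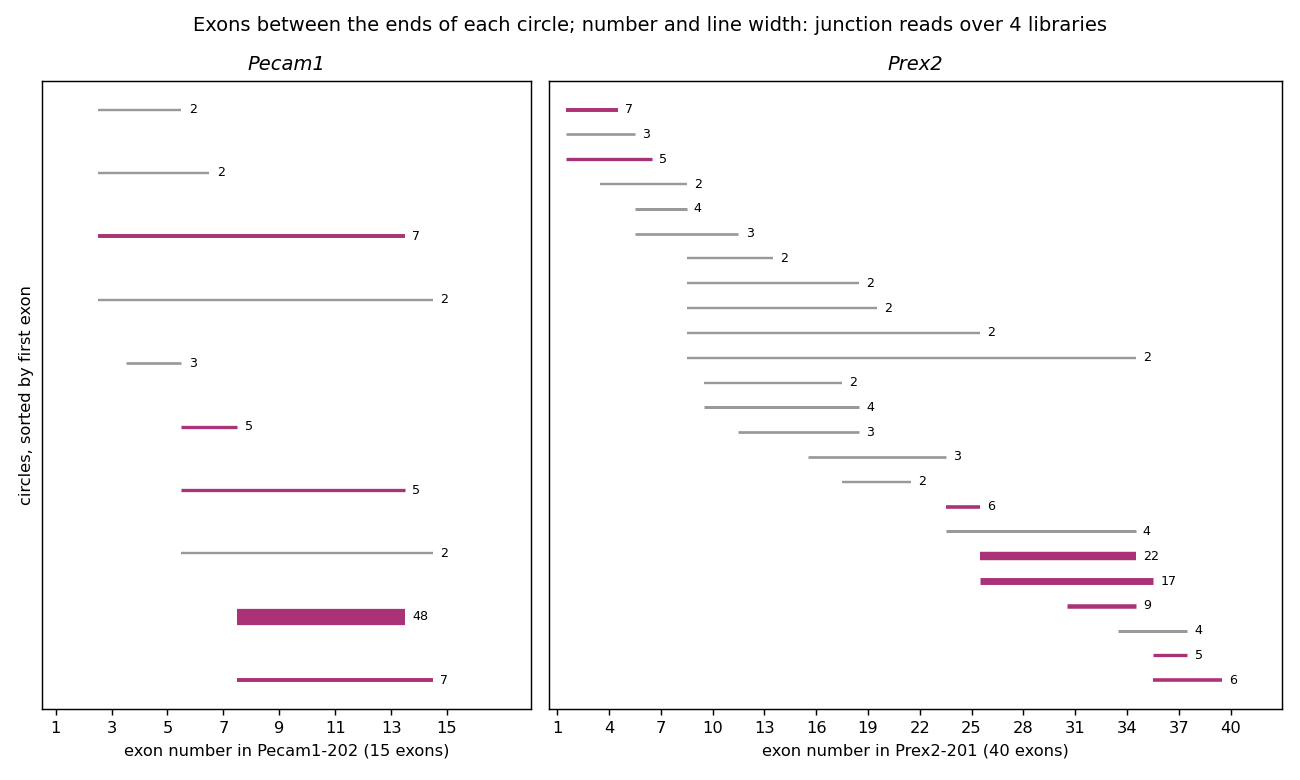
Exons between the ends of each Pecam1 (left) and Prex2 (right) circle that could be placed on exons, with exon number on the horizontal axis; line width and the number beside it give the junction reads over the 4 libraries, and colour marks 5 or more. Pecam1 reads gather on exons 8 to 13, with 48 reads, while Prex2 reads spread along the gene, the leading circles being those that begin at exon 26, with 22 and 17 reads.

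Prex2 (ENSMUSG00000048960, chromosome 1, 10993465 to 11303681) was the most divided host of the 6, with 26 circles, a number that 5 of the 4647 hosts of the series exceeded. The median host had 2. Its junction reads were 2, 5, 55 and 63 in order of stage, or 0.770, 1.60, 15.2 and 22.2 per 10000. The 2 later libraries lay far above the 2 earlier ones, with no overlap of their intervals. The terminal sac library was 9.50-fold (3.83 to 30.4) above the canalicular one, and the alveolar library 28.9-fold (7.67 to 244) above the pseudoglandular. The pseudoglandular level rests on 1 circle with 2 reads, the fewest a listed circle has. Circles with fewer reads are not listed, so a gene split over many circles can lose more of its reads where it is low. These folds can therefore be too high, which the intervals do not cover. The alveolar level was 1.46-fold (1.002 to 2.14) the terminal sac level, under the 2-fold threshold.

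No Prex2 circle dominated, and the leading one, exons 26 to 34, held 17.6% of the reads. The pseudoglandular library had 2 reads of it, the canalicular did not list it, the terminal sac had 9 (4.12 to 17.1) and the alveolar 11 (5.49 to 19.7). The alveolar library was 5.04-fold (1.10 to 46.8) above the pseudoglandular for this circle. The circle of exons 26 to 35 had 9 terminal sac and 8 alveolar reads, and that of exons 31 to 34 had 9 reads in the alveolar library only. The acceptor of exon 26 opened circles with 39 reads and the donor of exon 34 closed 4 circles with 37. Exons 36 to 37 and 36 to 39 gave 5 and 6 reads, all in the terminal sac library. Toward the other end of the gene, exons 2 to 4 gave 4 terminal sac and 3 alveolar reads.

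The Prex2 circles of the 2 later libraries overlapped in part. Of 15 alveolar and 14 terminal sac circles 4 were in both, which is 26.7% of the alveolar and 28.6% of the terminal sac list. For all circRNAs with a host, 37.6% of the alveolar and 30.4% of the terminal sac list were in both. With 2 to 11 reads per Prex2 circle, a circle missing from a list can be one below its limit of 2 reads. The junction ratio of Prex2, summed over the 1, 2, 14 and 15 circles listed, was 1.16%, 0.900%, 0.581% and 0.430% in order of stage. The odds ratio of the alveolar against the terminal sac library was 0.739 (0.515 to 1.06) and that of the terminal sac over the canalicular was 0.590 (0.245 to 1.42). Both intervals include 1. For the leading circle the alveolar against terminal sac odds ratio was 0.908 (0.383 to 2.15). Its non-junction reads were 1478 in the alveolar library, 1108 in the terminal sac and 340 in the pseudoglandular.

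Among the receptors, Adgrf5 (ENSMUSG00000056492, chromosome 17, 43360451 to 43459557) had 2, 2, 9 and 11 junction reads in order of stage, or 0.770, 0.641, 2.49 and 3.88 per 10000. The alveolar library was 5.04-fold (1.10 to 46.8) above the pseudoglandular one and 1.56-fold (0.588 to 4.26) the terminal sac level, and only the first ratio met the rule. Exons 3 to 9, residues 35 to 344 of 1348, gave 18 of the 24 reads, with 2 in the pseudoglandular library, 5 in the terminal sac library and 11 in the alveolar. Exons 3 to 10, which share its acceptor, gave 4 terminal sac reads, and exons 13 to 15 gave 2 canalicular reads. Non-junction reads at the ends of the exons 3 to 9 circle numbered 2349 in the alveolar library, 1268 in the terminal sac and 194 in the pseudoglandular. The alveolar count was 12.1 times the pseudoglandular one, where the median was 0.854 over the 1351 circRNAs listed in both libraries with 10 or more such reads in each, and 99.9% of these had a lower ratio. The junction ratio of this circle was 0.928% in the alveolar and 2.02% in the pseudoglandular library, with an odds ratio of 0.381 (0.0962 to 1.51).

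Calcrl (ENSMUSG00000059588, chromosome 2, 84330626 to 84425411) was listed in the alveolar library alone, with 14 junction reads or 4.94 per 10000. Against 3 reads, the floor used for an unlisted gene, its alveolar level was at least 4.28-fold (1.19 to 23.2) above the pseudoglandular level. It was at least 5.96-fold (1.66 to 32.3) above the terminal sac level. These bounds hold only if those libraries had 3 or fewer reads of the gene, which a list starting at 2 reads per circle does not show. Exons 3 to 9 gave 9 reads (4.12 to 17.1), against 2391 non-junction reads and a junction ratio of 0.747%. This circle contains the start codon, and its acceptor lies in the 5′ untranslated region. The other 2 circles, with 3 and 2 reads, were deposited as intronic and have an end outside annotated exons. With circles of the exon type only, Calcrl fell under the minimum of 10 reads.

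Tek (ENSMUSG00000006386, chromosome 4, 94739289 to 94874976) had 3, 0, 2 and 12 listed reads in order of stage, or 1.15, 0.553 and 4.24 per 10000 in the 3 libraries that listed it. The alveolar library was 7.66-fold (1.70 to 70.4) above the terminal sac and 3.67-fold (0.990 to 20.3) the pseudoglandular level, so the second ratio missed the rule by its interval. Scaled by the median of ratios the second became 3.99-fold (1.08 to 22.0) and met it. It did so too at 4.12-fold when scaled by non-junction reads, or without circRNAs that have a direct repeat at their ends or few alignment patterns. No Tek circle is among those circRNAs, so leaving them out changed only the library totals. Each of the 5 Tek circles was listed in 1 library, as were 74.0% of all circRNAs with a host. Exons 8 to 12 gave 3 pseudoglandular reads, exons 8 to 11 gave 2 terminal sac reads, and exons 9 to 12 and 7 to 13 gave 4 and 3 alveolar reads. The circle with most reads, 5 in the alveolar library, spans 247 bases (chromosome 4, 94871058 to 94871304) and was deposited as intronic. It had 17 non-junction reads and the highest junction ratio of the 50 circles, 37.04%, from 2 distinct alignment patterns. With circles of the exon type only, the alveolar level of Tek was 2.14-fold (0.489 to 12.8) the pseudoglandular level, and the pair of alveolar and terminal sac fell under the minimum of 10 reads.

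**Figure D3:**
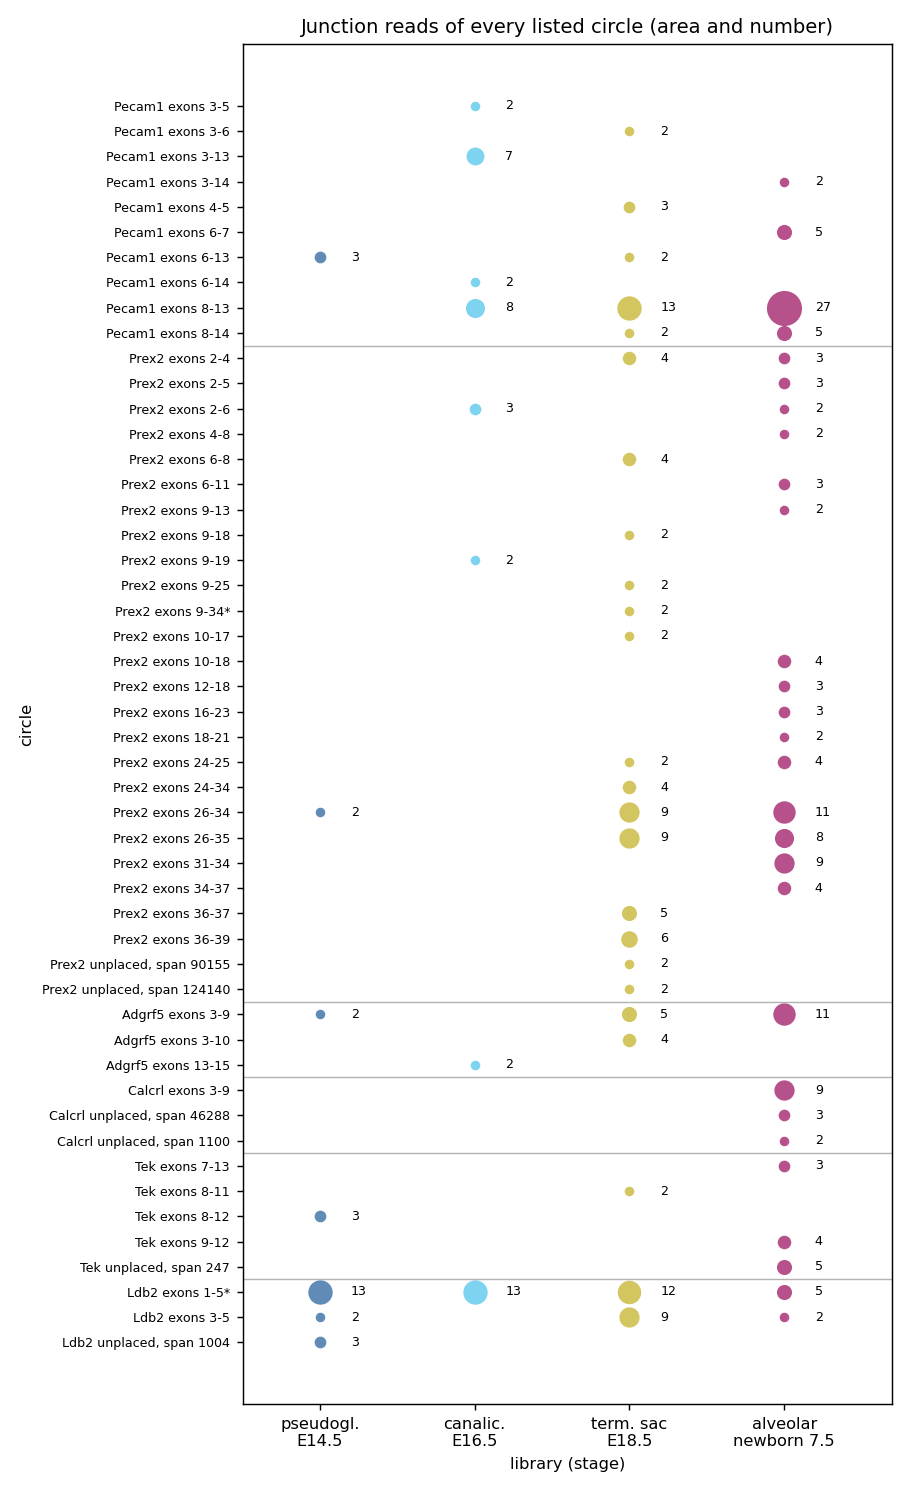
Junction reads of each of the 50 circles in the 4 libraries in order of stage; the area of a dot and the number beside it give the reads, and a blank is a circle not listed. An asterisk marks an end inside an annotated exon, and unplaced circles, with an end outside exons, carry their span in bases. The 27 alveolar reads of Pecam1 exons 8 to 13 are the highest count of a circle in any library, and Ldb2 exons 1 to 5 is listed in all 4.

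Ldb2 (ENSMUSG00000039706, chromosome 5, 44472132 to 44799680) went the other way from the adhesion, exchange-factor and receptor genes. It had 18, 13, 21 and 7 junction reads in order of stage, or 6.93, 4.16, 5.81 and 2.47 per 10000. The alveolar level was the lowest, and the alveolar library was 2.80-fold (1.12 to 7.94) lower than the pseudoglandular. Against the terminal sac it was 2.35-fold (0.963 to 6.55) lower, an interval that includes 1. The first call was lost when libraries were scaled by non-junction reads (ratio 0.401, interval 0.142 to 1.01), without repeat-end or few-pattern circRNAs (0.4003, 0.141 to 1.004) and with exon-type circles only (0.428, 0.148 to 1.12). No Ldb2 circle is a repeat-end or few-pattern circRNA, so leaving those out changed only the library totals.

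Most Ldb2 reads, 43 of 59, came from a circle that runs from the exon 5 donor to a point inside exon 1, 56 bases past the first base of the start codon. The 2 bases before that point in the transcript are AG, the letters of a splice acceptor. The circle had 13, 13, 12 and 5 junction reads in order of stage. A second circle, exons 3 to 5, uses the same donor and had 2 pseudoglandular, 9 terminal sac and 2 alveolar reads. The last, intronic, had 3 pseudoglandular reads.

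The non-junction reads of Ldb2 were highest in the library where its junction reads were lowest. At the ends of the leading circle they numbered 264, 447, 370 and 928 in order of stage, so that the junction ratio was 8.97%, 5.50%, 6.09% and 1.07%. The alveolar library stood apart from the 3 before it. As odds of junction against non-junction reads, the ratio was 0.116 (0.0427 to 0.316) for the alveolar over the pseudoglandular library and 0.176 (0.0639 to 0.482) for the alveolar over the terminal sac. The exons 3 to 5 circle had 818 non-junction reads in the alveolar and 362 in the terminal sac library, with an odds ratio of 0.117 (0.0288 to 0.472) between them. Since both circles share a donor, they also share some of these non-junction reads. Summed over circles, the odds ratio was 0.133 (0.0566 to 0.312) for alveolar over pseudoglandular, a pair in which 10.1% of 985 hosts had lower and 17.1% higher junction odds with an interval excluding 1. For Pecam1, Prex2, Adgrf5 and Tek that interval included 1, but the Prex2 odds ratio of 0.297 (0.0835 to 1.05) became 0.250 (0.0780 to 0.798) with 1 rather than 0.5 added to each count and was 1.06 (0.268 to 4.18) for the leading Prex2 circle alone. Except for Adgrf5, these sums do not hold the same circles in both libraries. For Prex2 they hold 15 alveolar circles and 1 pseudoglandular.

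**Figure D4:**
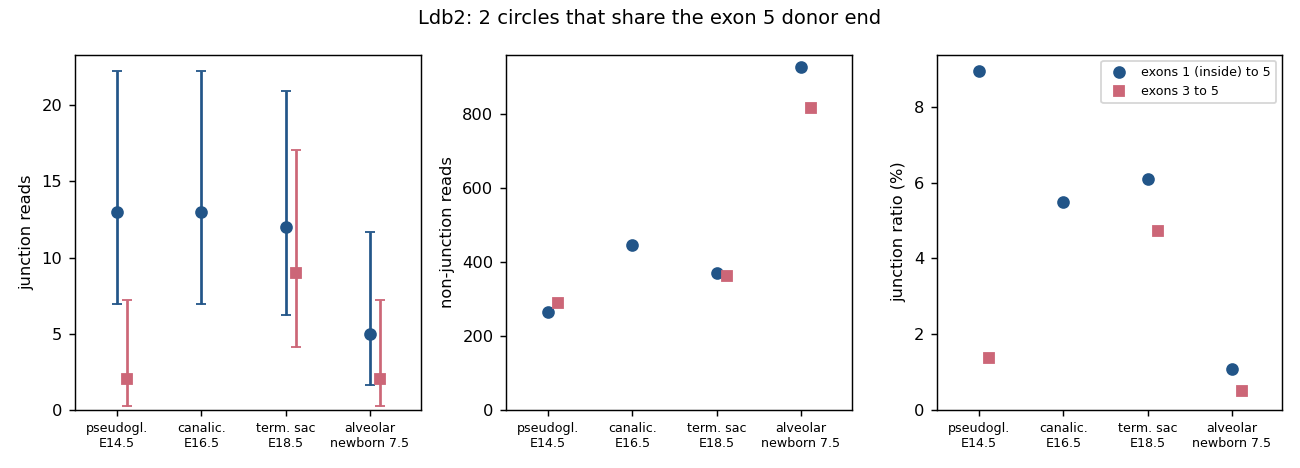
Junction reads with Poisson 95% intervals (left), non-junction reads (middle) and junction ratio (right) of the Ldb2 circles that share the exon 5 donor, in the 4 libraries in order of stage. In the alveolar library non-junction reads are at their highest, 928 and 818, and junction ratios at their lowest, 1.07% and 0.487%.

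Apart from the intronic Ldb2 and Tek circles, with junction ratios of 24% and 37.04%, the circles were minor products beside the linear reads at their ends. Their highest junction ratio was 8.97%, of Ldb2 exons 1 to 5 in the pseudoglandular library. The median junction ratio of the listed circles was 0.014, 0.0055, 0.005 and 0.004 in order of stage, as deposited fractions, against 0.023, 0.021, 0.027 and 0.024 over all circRNAs of those libraries. In the alveolar library 27 of the 28 circles were below the median of all circRNAs, and 22 of 24 in the terminal sac, 7 of 8 in the canalicular and 5 of 7 in the pseudoglandular. Non-junction reads were above the library median for 27 of the 28 alveolar and all 24 terminal sac circles, for all 8 canalicular and for 3 of 7 pseudoglandular circles. The median was 1834 for these circles and 282.5 for all circRNAs in the alveolar library, against 289 and 309 in the pseudoglandular. Of the 4 circles listed in both, each had more non-junction reads in the alveolar library, by 12.1 times for Adgrf5, 4.35 for Prex2 and 3.52 and 2.83 for the Ldb2 circles. Over the 1351 circRNAs listed in both with 10 or more such reads in each, the median ratio was 0.854, and 97.4% lay below 2.83. The Ldb2 circles share a donor and with it some of these reads. The genes were selected on such reads by stage, so this is a description.

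**Figure D5:**
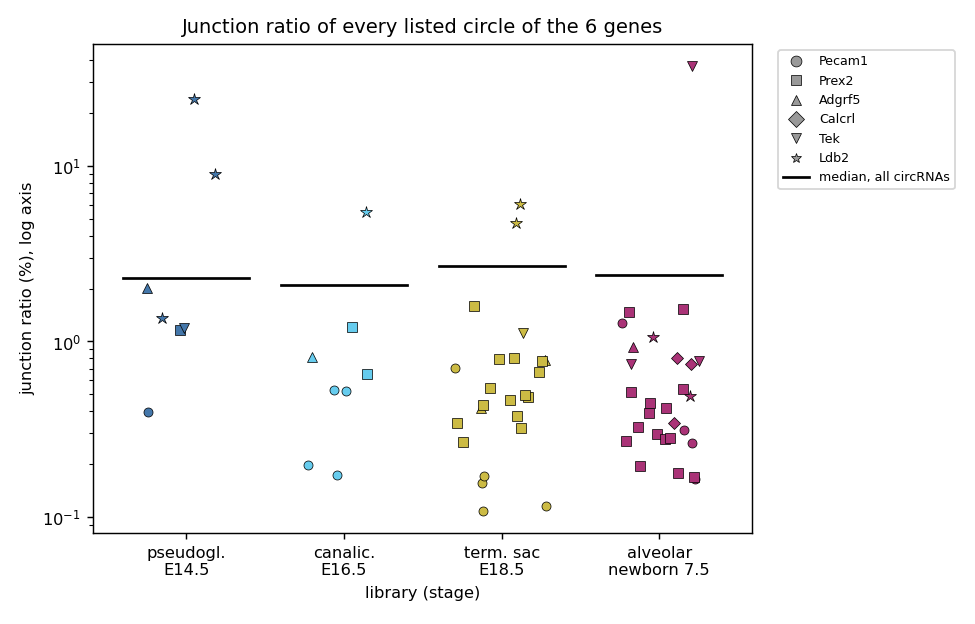
Junction ratio in percent, on a log axis, of each listed circle of the 6 genes in the 4 libraries in order of stage, with the median of all circRNAs of the library as a black line; horizontal scatter within a library carries no meaning. In the alveolar library the Tek intronic circle at 37.04% is the one point above the line. Ldb2 circles lie above it in the 3 earlier libraries, except exons 3 to 5 in the pseudoglandular library, at 1.37%.

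The structure of the circles was read beside that of the series. Both ends lay at exon boundaries for 42 of 50 (84%), against 77.1% of all 13008 circRNAs with a host. The 8 others were 6 circles with an end outside annotated exons and 2, Ldb2 exons 1 to 5 and Prex2 exons 9 to 34, with an end inside an exon. Of the 44 placed on exons, 43 lay wholly in coding sequence. The 42 spanned 2 to 17 exons with a median exon length of 736.5 bases, against 650 for the series, and none was a single exon, against 4.23%. Their flanking introns had medians of 6884 bases upstream and 8069 downstream, against 6903 and 5177. The longest direct repeat at the ends of a circle was 5 bases, and none of the 50 met the rule for few alignment patterns, which needs 10 reads in a library. A splice end was shared with another circle of the gene by 43 of the 50, against 7113 of the 13008 circRNAs with a host. Of these, 10 were of Pecam1 and 24 of Prex2, hosts with 10 and 26 circles, where the median host had 2. Hosts with more circles have more ends to share.

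Other genes of endothelium and of the pathways these genes belong to were read from lists drawn up with earlier results of these data known. Of 128 such genes 55 had a listed circle, and 12 had enough reads in the alveolar and pseudoglandular pair. By the same rule 6 of the 12 were higher and 1 lower, with a median log2 ratio of 1.96. Over all 1084 hosts of that pair 12.9% were higher and 16.7% lower, with a median of -0.12. Angpt1, an angiopoietin that activates Tek, had 13 reads in the alveolar and 2 in the pseudoglandular library, 5.96-fold higher (1.35 to 54.4). The terminal sac library did not list Angpt1. If that library had 3 or fewer reads of it, the alveolar level was at least 5.53-fold (1.52 to 30.3) higher. Svep1, an extracellular protein of lymphatic vessel growth, had 19 alveolar and 2 pseudoglandular reads, 8.71-fold higher (2.10 to 77.1). Efnb2, the ligand ephrin-B2 of arterial endothelium, had 33 and 5, 6.05-fold higher (2.35 to 19.9).

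Among Rac activators, Vav3 was 7.03-fold (2.12 to 36.6) and Dock4 5.37-fold (2.39 to 14.2) higher in the alveolar than in the pseudoglandular library, while Dock1 was at 0.745-fold (0.427 to 1.29). Between the canalicular and terminal sac stages, the step at which Prex2 was higher, 14 list genes had enough reads. Of these 2 were higher and 1 lower, where 12.4% of 1236 hosts were higher and 12.1% lower. In the terminal sac library Vav3 was 4.14-fold (1.55 to 13.9) and Efnb2 2.94-fold (1.04 to 10.2) higher and Afdn 4.34-fold lower (1.38 to 18.0), while Dock4 was at 0.513-fold (0.275 to 0.932), just inside the 2-fold limit. Of the adhesion receptors, Adgrl3 was 3.67-fold higher (2.17 to 6.54) in the alveolar than in the pseudoglandular library, and Adgrl2 was at 1.17-fold (0.492 to 2.84). Of the junction genes, Ptprm was 2.32-fold higher (1.49 to 3.66) in the alveolar than in the terminal sac library. In the alveolar against the pseudoglandular library it was at 1.78-fold (1.13 to 2.83), under the 2-fold limit. Tjp1 was at 4.13-fold there (0.854 to 39.3), an interval that includes 1. Of the junction genes with enough reads, none but Pecam1 met the rule as higher in that pair. Afdn, a junction scaffold, was 4.63-fold lower (1.51 to 18.9) in it. Nr2f2, a factor of venous endothelium, was at 0.573-fold (0.148 to 1.99) in that pair. In the alveolar against the terminal sac library 12% of 1197 hosts were higher and 12.4% lower. Of the list genes 15 had enough reads, of which 5 were higher and 1 lower. Beside Angpt1 and Ptprm the higher ones were Adgrl3 at 3.17-fold (2.03 to 5.06), Dock4 at 2.75-fold (1.56 to 5.02) and Efnb2 at 2.48-fold (1.34 to 4.74), and Elmo1, a partner of Dock proteins, was 6.07-fold lower (2.15 to 23.7). In the canalicular against the pseudoglandular library 8.87% of 1127 hosts were higher and 11.3% lower. Of the list genes 12 had enough reads and 3 were higher, Svep1 at 7.91-fold (1.91 to 70.0), Dock4 at 3.80-fold (1.65 to 10.2) and Elmo1 at 3.33-fold (1.07 to 13.7). Several of these genes are also active outside endothelium.

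Defining endothelial genes were sparsely represented. Flt1, a VEGF receptor, had listed circles in all 4 libraries, Kdr and Cdh5 in the alveolar library only, and Emcn in the terminal sac and alveolar libraries. Mmrn1 was listed in the pseudoglandular, canalicular and terminal sac libraries but not in the alveolar. Erg was listed in the canalicular and terminal sac libraries, Fli1 in the canalicular only and Flt4 in the terminal sac only. Vwf and Egfl7 were listed in the pseudoglandular and alveolar libraries. Of 10 genes of the VEGF list none had 10 reads in the alveolar and pseudoglandular pair. That list held 0.0539%, 0.0288%, 0.0498% and 0.0565% of listed junction reads in order of stage. The list of LIM-domain binding and endothelial transcription factors held 0.112%, 0.0705%, 0.119% and 0.116%. Each of the other endothelial lists had its highest share in the alveolar library. These shares include the reads of Pecam1, Ldb2 and the other genes studied here. The receptor partner genes Ramp1, Ramp2 and Ramp3, which work with Calcrl, had no listed circle.

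Markers of other cells were summed over the same libraries, as shares of listed junction reads in order of stage. The leukocyte, platelet and erythroid list held 0.0231%, 0.125%, 0.108% and 0.0459%, or 6, 39, 39 and 13 reads, from 3, 4, 5 and 3 of its 15 genes, with the platelet genes Itga2b, Itgb3, Gp9 and Pf4 unlisted throughout. The lung epithelium list held 0%, 0.0609%, 1.25% and 2.66%, or 0, 19, 452 and 753 reads, from 0, 2, 5 and 5 of 13 genes. Sftpc alone gave 376 of its terminal sac and 521 of its alveolar reads. The mesenchyme, smooth muscle and pericyte list held 0.774%, 0.798%, 0.880% and 2.84%, or 201, 249, 318 and 804 reads, from 6, 5, 6 and 5 of 13 genes, so that its share was close in the 3 prenatal libraries and highest in the alveolar. Most of these reads were of Pde5a, with 157, 211, 255 and 516. Col1a2 had another course, with 17 pseudoglandular and 171 alveolar reads and no listed circle in the canalicular and terminal sac libraries. The cycling-cell list held 1.21%, 1.06%, 0.664% and 0.402% from 9, 8, 6 and 6 of 9 genes, and the cardiac and striated muscle list 0.362%, 0.0897%, 0.0443% and 0.0918% from 3, 2, 2 and 3 of 6. The mesothelium list had 2 reads, of Msln in the canalicular library. Their part in the levels of the 6 genes was not tested.

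Hosts with a similar course over the 4 libraries were sought among those with 30 or more reads, by the distance between profiles of shares that sum to 1. With 4 points per profile this is a description. Pecam1 lay nearest to Esco1 (distance 0.0382) and Gfra2 (0.0659), against a median distance of 0.398 over 816 hosts. Prex2 lay nearest to Limch1 (0.0525) and Arl15 (0.0824), and Adgrf5 to Usp12 (0.0378) and Met (0.0399). Calcrl had the profile of Crip2 and Sftpb, both also listed in the alveolar library alone. Tek, at 0.167 from Col5a1 and 0.171 from Pcnt, had no close neighbour, and Ldb2 lay 0.00622 from Nlrp5-ps and 0.0302 from Smarcc1.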

How the data were processed

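Total RNA was sequenced from 4 lung libraries, 1 per stage. Per the submitters' processing notes cutadapt, HISAT2 2.0.5, StringTie, HTSeq and BWA were used on mm10, with no role given, and the column names match the caller CIRI. Per the file headers the authors gave, for every circRNA, the count of junction and of non-junction reads, not normalized, and the fraction 2J/(2J + NJ) called the junction ratio, which recomputed with 0 mismatches at a tolerance of 0.001. Each listed circRNA has 2 or more junction reads, and further filters are not given in the sources used here.

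Circles with the same chromosome, start and end in different libraries were taken as one. Host identifiers were named with GENCODE M21, which held all but 6 of 4653. No other circRNA overlaps the 6 loci. Exons came from M21 transcripts, and lengths assume that all exons between the ends are kept. Ratios are of shares of listed junction reads with exact conditional binomial 95% intervals, and an unlisted gene was set to 3 reads. Junction odds had 0.5 added to each count. A circRNA had few alignment patterns when, with 10 or more reads, patterns were under 30% of reads, a limit set after the values were seen, and a repeat end was a direct repeat of 6 or more bases. Circles were described singly from 5 reads in a library, list genes when called, with a few others chosen after their values were seen, and the 2 nearest profiles per gene. Members and lists were chosen with earlier results of these data known. Alternatives were the scaling, the minimum of reads, repeat-end or few-pattern circRNAs left out, junctions within 5 bases merged, the leading circRNA left out, patterns per circRNA, the number added to odds, circles of 3 or more reads, thinning and exon-type circles. Apart from the 2 bases named for Ldb2 exon 1, flanking dinucleotides were not analysed here, since no genome sequence was at hand. The ratio rule was tested on simulated data. Python 3.11.15, numpy 2.4.6, pandas 2.3.3, scipy 1.17.1 and matplotlib 3.10.9 were used.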

Additional observations from a re-analysis of the deposited data

How the results depend on the processing

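With 1 library per stage no library could be left out of a group. No paired analysis was possible because each stage has 1 library. The call of gene ratios and junction odds ratios was kept in 124 of 134 recomputations, lost in 6 and gained in 4. A gene that fell under the minimum of reads in a setting is not among the 134, so its call is not counted as lost. The settings on the minimum of reads and on patterns per circRNA left the ratio of each gene they kept unchanged. Those recomputations could therefore neither lose nor gain a call. In 3 of the 124 an uncalled value moved to the other side of 1: the Prex2 junction odds, alveolar against pseudoglandular, at 1.06 with the leading circRNA only, and the Pecam1 ratio, terminal sac against canalicular, at 1.004 and 1.02 with the median of ratios and without repeat-end or few-pattern circRNAs. For the alveolar against the pseudoglandular library the count of higher genes was 2 with 20 or more reads in the pair and 1 without the leading circRNA of each host, 3 with exon-type circles only, and 5 under each of both other scalings and without repeat-end or few-pattern circRNAs, against 4. The count of lower genes was 0, against 1, in 4 settings: scaling by non-junction reads, leaving out circRNAs with repeat ends or few patterns, leaving out the leading circRNA, and exon-type circles only (an alternative chosen after seeing the data). For the alveolar against the terminal sac library the higher count was 1 with 20 or more reads, 0 without the leading circRNA and 1 with exon-type circles, against 3. For the canalicular against the pseudoglandular library it was 0 without the leading circRNA, against 1. The settings on reads, leading circRNA and circle type leave fewer reads by construction. The repeat-end setting removed none of the 50 circles, so their reads stayed the same and only the library totals changed. The scalings also change only the library totals that reads are set against, and why these totals differ was not tested. Counting circles with 3 or more reads left 4 of 7 in the pseudoglandular, 4 of 8 in the canalicular, 13 of 24 in the terminal sac and 21 of 28 in the alveolar library. Scaling by non-junction reads moved the median log2 ratio of all hosts to 0.19 in the canalicular against pseudoglandular pair, where 169 hosts were then higher and 100 lower, against 100 and 127. It moved the median to 0.04 in the alveolar against pseudoglandular pair, and the median of ratios moved it to -0.11 in the alveolar against terminal sac pair. Levels of 2 to 5 reads per circle limit what can be said of single circles.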
